A study of Saccharomyces cerevisiae BY4741 with 66 samples.

Results

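The genes described here are the 38 of glucose uptake, glycolysis and alcoholic fermentation in Saccharomyces cerevisiae that were listed by systematic name, out of 6605 features in each deposited table. Phosphofructokinase subunits PFK1 and PFK2 are not among them and appear only as the tagged proteins of their own strains. By role the list holds 6 genes of upper glycolysis, 9 of lower glycolysis, 6 of fermentation, 2 of glycerol synthesis, 2 of gluconeogenesis, 7 hexose transporters, 3 enzymes of fructose-2,6-bisphosphate and 3 transcription regulators. All 38 had a row in every table, and their coordinates were the same as in the RefSeq annotation of assembly R64.

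In baker's yeast, hexose transporters carry glucose into the cell, kinases phosphorylate it, and glycolysis turns it into pyruvate. With ample glucose most of that pyruvate is decarboxylated to acetaldehyde and reduced to ethanol, even in air, while genes for other carbon sources are held down by glucose repression. Many steps have isoenzymes with different regulation: HXK2, PDC1 and ADH1 serve growth on glucose, whereas HXK1, GLK1, HXT5, HXT6, HXT7 and ADH2 are known as genes that glucose represses.

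The study asked with which nascent chains single subunits of protein complexes associate during translation, by selective ribosome profiling. A total library holds the footprints of every ribosome in a lysate, and an immunopurified (IP) library holds those of the ribosomes caught by GFP antibody on beads. Of 66 samples, 50 had a table per gene, from 15 strains, each with both fractions, so that 25 tables were totals and 25 were IPs. All strains are labelled BY4741 and were grown at 30 °C with shaking at 150 rpm.

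The strains FAS1dMPT-GFP and FAS1-GFP FAS2dMPT lack a segment of the MPT domain of fatty acid synthase, the domain that transfers malonyl and palmitoyl groups, and were grown with added fatty acids. FAS1dMPT-GFP (2 replicates) carries GFP on the shortened FAS1. FAS1-GFP FAS2dMPT (2 replicates) carries GFP on FAS1 and lacks bases 1 to 282 of FAS2. TRP2-GFP (2 replicates) and TRP3-GFP (1), tagged in tryptophan synthesis, were grown in SD-trp, and CPA1-GFP (1), tagged in arginine synthesis, in SD-arg. The other 10 strains were grown in YPD, a rich glucose medium: FAS1-GFP, FAS2-GFP, GUS1-GFP, MES1-GFP, ARC1-GFP, PFK1-GFP and PFK2-GFP with 2 replicates each, and SUI2-GFP, SUI3-GFP and GCD11-GFP with 1 each. That gave 17 YPD totals and 17 YPD IPs. Strain, deletion and medium change together in these groups and cannot be told apart. The labels do not say whether replicates are separate cultures, so p-values from single libraries measure a spread between libraries that may be technical. In the comparisons of totals that spread also holds differences between the 10 YPD strains. Where 1 ratio per strain is used, p-values measure the spread between strains.

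Values are RPM, reads relative to library size, after scaling of the libraries to each other. In a bulk lysate, fewer cells that translate a gene and less translation per cell cannot be told apart, nor can mRNA level and ribosome load. The tables imply 0.544 to 31.7 M reads in IPs and 1.74 to 55.9 M reads in totals, of which 37.8% to 94.3% in IPs and 73.0% to 96.5% in totals lay on listed features. BY4741 is a MATa strain, but several libraries showed the MATalpha pattern of pheromone and receptor genes: FAS1-GFP total 1 and both its IPs, FAS2-GFP in both fractions, total 1 and IP 1 of FAS1-GFP FAS2dMPT, and both TRP2-GFP totals, while the TRP2-GFP IPs held both patterns. PFK1-GFP total 1, mainly MATa, also held MATalpha footprints, 122.2 scaled RPM summed over these genes beside 831.9 for MATa. The median MATalpha sum of YPD totals was 1.30. This library enters the PFK1-GFP comparisons below. FAS2-GFP IP 2 and FAS1-GFP IP 2 held MATa footprints as well, 157.5 and 117.1 scaled RPM beside 519.3 and 843.7 for MATalpha. FAS1-GFP total 2 was MATa and correlated best with TRP3-GFP total 1 (r = 0.9951 across features). In FAS1-GFP FAS2dMPT replicate 2 the library labelled IP had more reads on listed features (94.3%) than the one labelled total (88.5%), so its fraction labels are in doubt. The parts these differences play in the results below were not tested. The calls in the deletion strains are given below also without the libraries in doubt there. For SD-trp totals, PGK1 and HXT4 are given also with MATa-pattern totals only. The IP comparisons over YPD strains include FAS1-GFP and FAS2-GFP. For FAS1-GFP the ratio sets IPs of the MATalpha pattern against the mean of a MATalpha-pattern and a MATa-pattern total.

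In YPD totals the mean footprint density of the genes ran from very high down to 1.015 scaled RPM per kb for FBP1, with many levels between. The densest genes per kilobase were TDH3, the major glyceraldehyde-3-phosphate dehydrogenase, at 26856 ± 6162 scaled RPM per kb, and PDC1, the main pyruvate decarboxylase, at 23089 ± 3068 scaled RPM per kb (SD, n = 17 each). FBA1, fructose-bisphosphate aldolase, had 18029 ± 2708, ENO2, the major enolase, 17750 ± 4312, and ADH1, the main alcohol dehydrogenase of fermentation, 16864 ± 3463 scaled RPM per kb. TDH3 and PDC1 differed by less than the SD of TDH3, and FBA1, ENO2 and ADH1 by less than the SD of any of them, while the step from PDC1 to FBA1 was larger than the SD of either. The 12 densest genes, from TDH3 down to TDH1, averaged 3693 scaled RPM per kb or more. The 38 genes together took 18.7% ± 1.55 of nuclear footprints in YPD totals (SD, n = 17). The share was 17.9% ± 1.38 in the totals with fatty acids (n = 4), 18.2% ± 1.21 in SD-trp totals (n = 3) and 16.3% in the SD-arg total, each within the 15.6% to 21.4% that single YPD totals spanned.

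**Figure D1:**
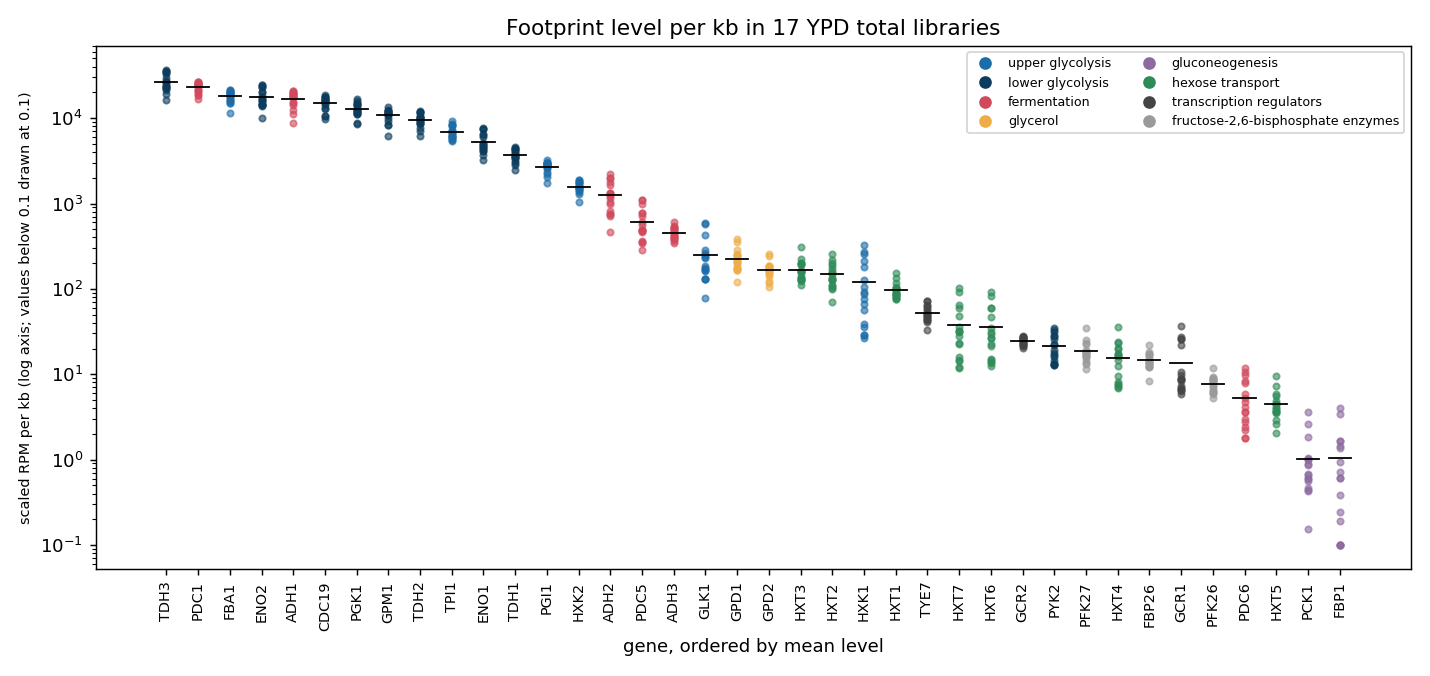
Footprint level of each of the 38 genes in the 17 YPD totals, in scaled RPM per kilobase on a log axis, with 1 point per library, the mean as a black line and colours for the roles. The enzymes of lower glycolysis other than PYK2, with PDC1, ADH1 and FBA1, lie at the top, the transporters and regulators well below them, and PCK1 and FBP1 at about 1 scaled RPM per kb.

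Most isoenzyme families were dominated by 1 gene in YPD totals, as a share of the family's footprints per length. CDC19, the main pyruvate kinase, held 99.9% ± 0.0657 and its paralog PYK2 0.147% ± 0.0657 of pyruvate kinase footprints. PDC1 held 97.5% ± 0.858 of pyruvate decarboxylase footprints, PDC5 2.53% ± 0.863 and PDC6 0.0225% ± 0.0143. Among the sugar kinases HXK2, the hexokinase used on glucose, held 81.6% ± 11.2, GLK1, a glucokinase, 12.5% ± 6.97 and HXK1 5.88% ± 4.52 (SD, n = 17 throughout). The division was more even among enolases, with 77.2% ± 1.30 for ENO2 and 22.8% ± 1.30 for ENO1, and among glyceraldehyde-3-phosphate dehydrogenases, with 66.5% ± 2.84 for TDH3, 24.1% ± 1.61 for TDH2 and 9.37% ± 1.75 for TDH1. ADH2, the ethanol-consuming alcohol dehydrogenase, held 6.84% ± 1.88 beside ADH1. Such pairs have similar sequences, and how the authors assigned reads that fit both is not given, so the minor member's value is uncertain.

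The hexose transporters were led in YPD totals by HXT3, a low-affinity carrier, with 33.0% ± 3.74 of their footprints per length, and HXT2, a high-affinity carrier, with 29.4% ± 6.93. HXT1, the low-affinity carrier of high glucose, followed with 19.9% ± 4.95. HXT6 and HXT7 are nearly identical genes on chromosome IV (1159608 to 1161320 and 1154216 to 1155928), and their ratio, HXT7 over HXT6, stayed between 0.800 and 1.21 in all 25 totals, so the values of each are uncertain on their own. HXT5, a carrier of slow-growing cells on chromosome VIII (294669 to 296447), had the lowest level of the 7, 3.65 to 16.9 scaled RPM in YPD totals. The 10 further transporter genes of the family checked beside them, HXT8 to HXT17 (without HXT12) and GAL2, averaged at most 0.932 scaled RPM over the totals.

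The gluconeogenic genes had few footprints in the totals of every medium. FBP1, fructose-1,6-bisphosphatase, had 0 to 25.7 implied reads per total library and was at 0 in 4 of 25. PCK1, phosphoenolpyruvate carboxykinase, had 1 to 73 implied reads. Both were below the mean of 5 scaled RPM required for a test, so 36 of the 38 genes were tested. The highest FBP1 values came from the TRP2-GFP IPs, 19.8 and 24.0 scaled RPM against 1.40 and 0.846 in the TRP2-GFP totals.

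Some minor isoenzymes and transporters varied widely between YPD totals. The SD of log2 values over the 17 libraries was 1.20 for HXK1, 0.96 for HXT7, 0.91 for HXT6 and 0.78 for GLK1. Among the 12 densest genes it ran from 0.20 for PDC1 and 0.24 for FBA1 to 0.34 for TDH3, 0.36 for ENO2 and 0.37 for ENO1. The median SD was 0.34 over the 36 genes and 0.32 over 4975 features tested in these libraries, and 9 of the 36 lay at or above percentile 91.4 of features. HXK1 had a lowest value of 38.9, a median of 126.5 and a highest of 480.7 scaled RPM. For HXK1, GLK1, HXT6 and HXT7 the same 3 libraries were the highest, FAS1-GFP total 2, SUI2-GFP total 1 and PFK2-GFP total 2. Part of this spread lay between replicates of 1 strain: HXK1 had 375.1 scaled RPM in PFK2-GFP total 2 and 82.9 in total 1, the largest replicate difference for it (2.16 on the log2 scale), where all YPD totals spanned 12.1-fold. In MES1-GFP and ARC1-GFP, by contrast, the 4 totals stayed between 41.8 and 56.1 scaled RPM. PDC5 spread from 478.5 to 1878 scaled RPM, with its highest values in SUI2-GFP and ARC1-GFP totals. GCR1, an activator of glycolytic genes, spread from 18.1 to 112.8 scaled RPM, and its partner GCR2 was among the steadiest features, with an SD of 0.13 on the log2 scale.

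In the 2 strains with an MPT deletion and added fatty acids, the transporter HXT5, the glucokinase GLK1 and the glycerol enzyme GPD1 had more footprints than in YPD totals, and the decarboxylase PDC5 had fewer. HXK1 and PYK2 were called higher and HXT2 lower in FAS1-GFP FAS2dMPT, and HXT1 higher in FAS1dMPT-GFP. HXT5 had the largest difference of the 36 genes in both strains. A gene was called where the adjusted p was below 0.05 over all features and the log2 difference was at least 1. In FAS1dMPT-GFP totals 4 of the 36 genes were called higher and 1 lower, where 5.1% of 5037 features were called higher and 1.19% lower (limma with Benjamini-Hochberg adjustment). In FAS1-GFP FAS2dMPT totals 5 were called higher and 2 lower, where 6.33% of features were called higher and 1.87% lower. The median log2 difference was -0.12 over the 36 genes and 0.00 over all features in FAS1dMPT-GFP, and -0.02 over the genes and 0.02 over all features in FAS1-GFP FAS2dMPT. At the adjusted p alone 7 genes were higher and 2 lower in each strain, where 8.0% of features were higher and 7.01% lower in FAS1dMPT-GFP and 10.5% higher and 11.5% lower in FAS1-GFP FAS2dMPT. Both comparisons share the 17 YPD totals.

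HXT5 (YHR096C) had 91.3 and 97.8 scaled RPM in FAS1dMPT-GFP totals and 129.8 and 134.7 in FAS1-GFP FAS2dMPT totals, against a lowest of 3.65, a median of 7.23 and a highest of 16.9 scaled RPM in YPD totals. All 4 libraries lay above every YPD total. The log2 difference to YPD totals was 3.48 ± 0.31 (SE, n = 2, adjusted p = 9.5e-08 by limma) in FAS1dMPT-GFP and 3.96 ± 0.31 (n = 2, adjusted p = 3.6e-09 by limma) in FAS1-GFP FAS2dMPT. The IPs of the same strains, which this test did not use, had 95.9 and 52.6 scaled RPM in FAS1dMPT-GFP and 87.4 and 165.8 in FAS1-GFP FAS2dMPT, against 2.30 to 11.8 in YPD IPs. Coming from the same strains, they are not independent of the totals. FAS1dMPT-GFP IP 1 correlated with total 1 at r = 0.9918, and the 165.8 is from the FAS1-GFP FAS2dMPT replicate whose fraction labels are in doubt.

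The glucose kinases outside HXK2 were high as well. GLK1 (YCL040W, chromosome III, 50838 to 52340) had 1057 and 1165 scaled RPM in FAS1dMPT-GFP totals and 3188 and 1406 in FAS1-GFP FAS2dMPT totals, against a lowest of 117.8, a median of 282.2 and a highest of 881.8 in YPD totals. Its log2 difference was 1.79 ± 0.57 (SE, adjusted p = 0.0347 by limma) in FAS1dMPT-GFP and 2.72 ± 0.57 (adjusted p = 0.00143) in FAS1-GFP FAS2dMPT. HXK1 (YFR053C, chromosome VI, 253592 to 255049) had 520.7 and 595.8 scaled RPM in FAS1dMPT-GFP totals and 979.1 and 734.4 in FAS1-GFP FAS2dMPT totals, against 38.9 to 480.7 in YPD totals. The groups did not overlap for either gene, but the highest YPD total, FAS1-GFP total 2, came close for both. HXK1 was called in FAS1-GFP FAS2dMPT, with a log2 difference of 2.74 ± 0.88 (adjusted p = 0.026 by limma), and not in FAS1dMPT-GFP, where it was 2.13 ± 0.88 (adjusted p = 0.106). The share of HXK2 among sugar kinase footprints was 50.6% ± 1.21 in FAS1dMPT-GFP totals and 36.6% ± 7.89 in FAS1-GFP FAS2dMPT totals (SD, n = 2 each), against 81.6% ± 11.2 in YPD totals (n = 17). HXK2 itself did not pass the test, with a log2 difference of -0.44 ± 0.18 in each strain (adjusted p = 0.114 and 0.09 by limma).

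GPD1 (YDL022W, chromosome IV, 411825 to 413000), the glycerol-3-phosphate dehydrogenase also known from osmotic stress, had 709.3 and 756.9 scaled RPM in FAS1dMPT-GFP totals and 1095 and 862.4 in FAS1-GFP FAS2dMPT totals, against 142.2 to 452.0 in YPD totals. It was called in both, at 1.53 ± 0.32 (adjusted p = 0.00232 by limma) and 1.94 ± 0.32 (adjusted p = 0.000143). Its paralog GPD2, known from growth without oxygen, did not pass in either, at 0.24 ± 0.22 and 0.10 ± 0.22. PYK2, the pyruvate kinase repressed by glucose, had 84.1 and 80.3 scaled RPM in FAS1-GFP FAS2dMPT totals, where it was called at 1.40 ± 0.36 (adjusted p = 0.00639), and 58.7 and 65.9 in FAS1dMPT-GFP totals, where it was not called at 1.00 ± 0.36 (adjusted p = 0.058), against 19.4 to 52.3 in YPD totals.

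Other transporters were called in 1 strain each. HXT1 had 442.3 and 358.8 scaled RPM in FAS1dMPT-GFP totals, above all YPD totals at 128.6 to 264.5, and was called at 1.28 ± 0.19 (adjusted p = 0.000115 by limma). In FAS1-GFP FAS2dMPT totals HXT1 had 214.7 and 271.8 scaled RPM, which overlaps the YPD totals, and missed the fold at 0.56 ± 0.19 (adjusted p = 0.0402). HXT3 passed the adjusted p but not the fold in FAS1dMPT-GFP, at 0.87 ± 0.26 (adjusted p = 0.0226), and was at -0.04 ± 0.26 in FAS1-GFP FAS2dMPT. HXT2 was called lower in FAS1-GFP FAS2dMPT, where it had 110.2 and 115.2 scaled RPM, against 113.2 to 418.3 in YPD totals, at -1.02 ± 0.30 (adjusted p = 0.016). Whether the 2 deletion strains differ from each other in these genes was not tested.

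PDC5 (YLR134W, chromosome XII, 410723 to 412414), a minor pyruvate decarboxylase, had 341.2 and 383.0 scaled RPM in FAS1dMPT-GFP totals and 499.3 and 230.5 in FAS1-GFP FAS2dMPT totals, against a lowest of 478.5, a median of 834.6 and a highest of 1878 in YPD totals. The log2 difference was -1.39 ± 0.40 (adjusted p = 0.0208 by limma) and -1.49 ± 0.40 (adjusted p = 0.00972). PDC1, the major enzyme, differed by -0.69 ± 0.19 in FAS1dMPT-GFP, which passed the adjusted p (0.0159) but not the fold, and by -0.45 ± 0.19 in FAS1-GFP FAS2dMPT (adjusted p = 0.0873). The enzymes of lower glycolysis, PYK2 aside, lay between -0.68 and 0.07 in both strains and did not pass the adjusted p. PFK26, a 6-phosphofructo-2-kinase, passed the adjusted p in both without reaching the fold, at 0.73 ± 0.24 (0.0404) and 0.75 ± 0.24 (0.0262).

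**Figure D2:**
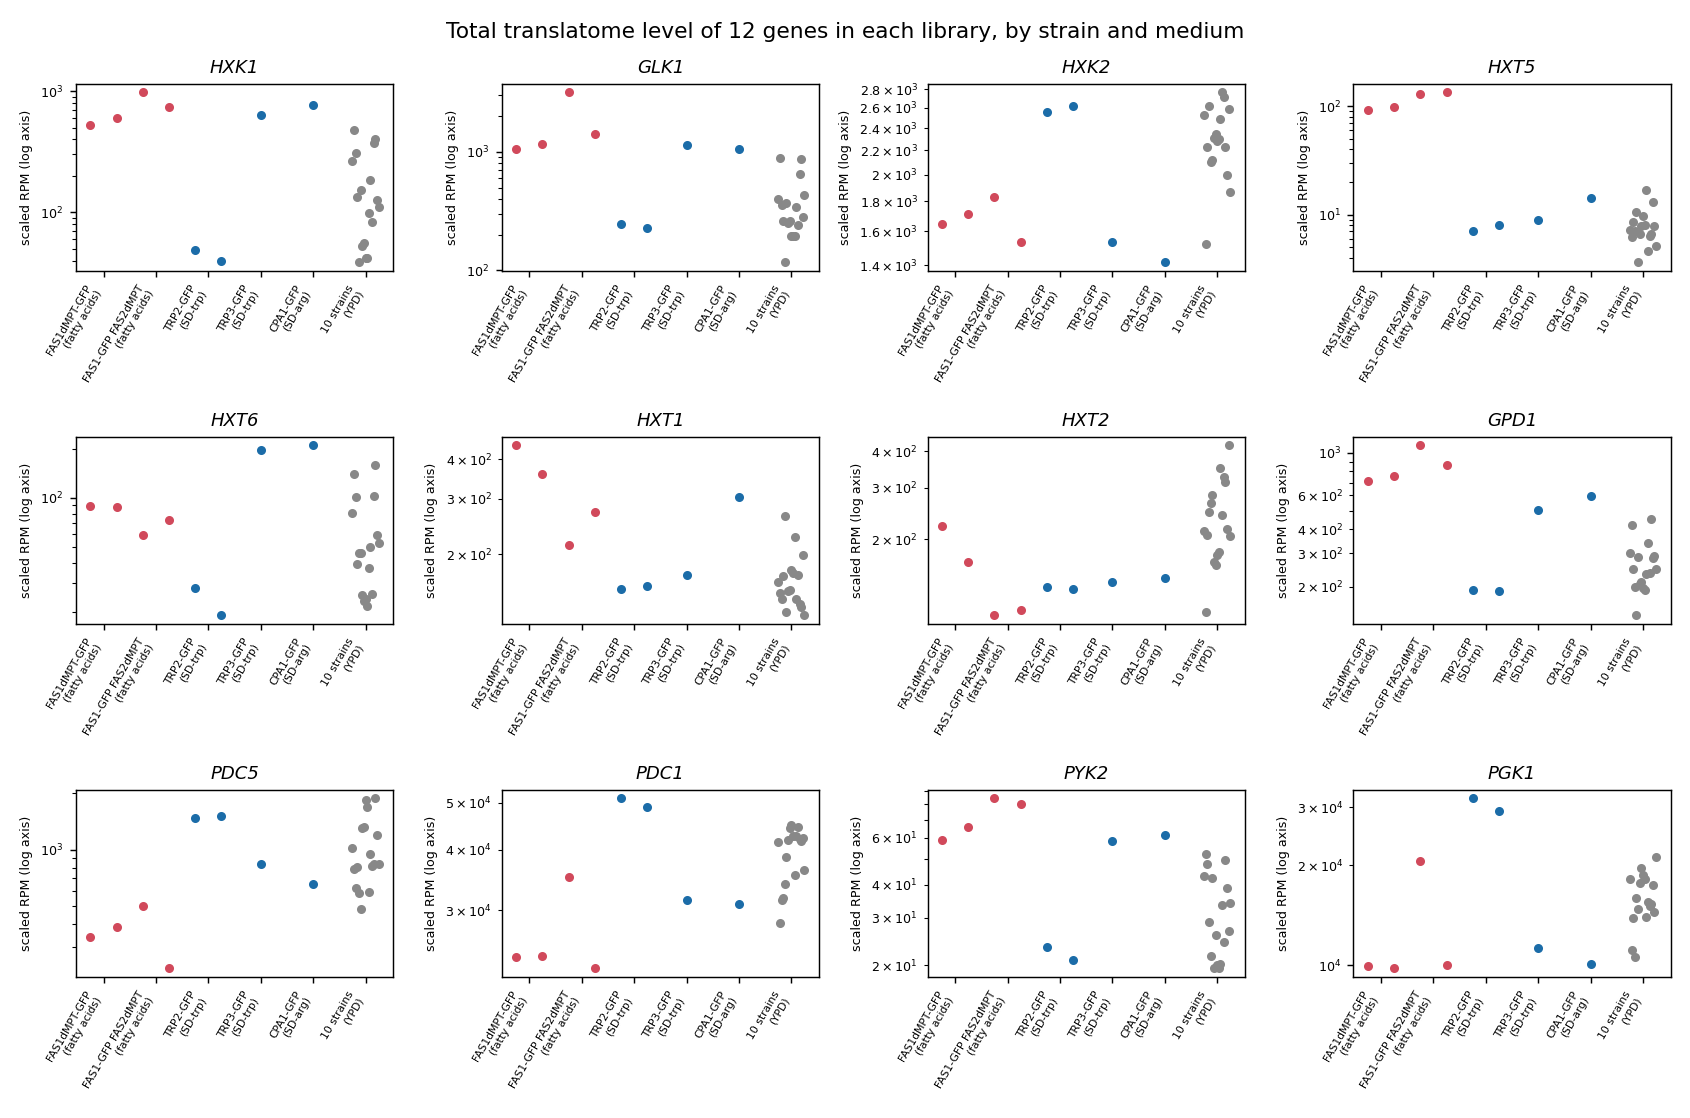
Scaled RPM on a log axis for 12 of the genes in each total library, with 1 point per library: the strains with an MPT deletion and fatty acids in red, the SD strains in blue and the 17 YPD totals in grey. HXT5 is at 91.3 or more in the red libraries and at most 16.9 in the others, HXK1 and GLK1 are also high in TRP3-GFP and CPA1-GFP, and TRP2-GFP differs from TRP3-GFP in the same medium.

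Over both strains, 6 of the 36 genes were above every YPD total in all 4 libraries with fatty acids, where 5.72% of features were: GLK1, GPD1, HXK1, HXT5, PFK26 and PYK2. None was below every YPD total in all 4, where 5.14% of features were. Taken alone, FAS1dMPT-GFP totals had 8 genes above (8.74% of features), HXT1 and FBP26 besides those 6, and 3 below (8.6%), PGK1, PDC1 and PDC5. FAS1-GFP FAS2dMPT totals had the same 6 above (9.15%) and TPI1 below (9.23%). The calls rest on 1 strain each. With 1 mean per strain only HXT5 (adjusted p = 0.000123) and HXT1 (0.00774) remained called in FAS1dMPT-GFP by limma, and HXT5 (1.2e-05), GPD1 (0.012) and GLK1 (0.0443) in FAS1-GFP FAS2dMPT. Leaving out either FAS1dMPT-GFP total left 2 called, and leaving out either FAS1-GFP FAS2dMPT total left 3. In FAS1dMPT-GFP the lost calls were GLK1, GPD1 and PDC5, with adjusted p of up to 0.317 for GLK1, 0.102 for GPD1 and 0.241 for PDC5 by limma. Without total 2 of FAS1-GFP FAS2dMPT, the library whose fraction label is in doubt, HXK1 was at 2.95 (adjusted p = 0.146), PYK2 at 1.43 (0.0761), HXT2 at -1.05 (0.127) and PDC5 at -0.93 (0.322), and none of them was called by limma. Without total 1, the MATalpha-pattern library, HXK1 was at 2.53 (adjusted p = 0.247), GLK1 at 2.13 (0.111), PYK2 at 1.37 (0.110) and HXT2 at -0.99 (0.175). With MATa-pattern totals only, in YPD too, a setting chosen after seeing the data, the same 4 genes were not called, with HXK1 at 2.70 (adjusted p = 0.146), GLK1 at 2.14 (0.0967), and PYK2 at 1.44 (0.0670), while HXT2 had an adjusted p of 0.235. HXT5 and GPD1 were called in each of these 3 settings. HXT2 was just under the fold without GUS1-GFP total 2, PFK1-GFP total 1, either PFK2-GFP total or SUI3-GFP total 1 (-0.96). Scaling matters for small differences: RPM as deposited shifted the median of all features in FAS1dMPT-GFP to 0.42, and PDC5 there to -0.95 (adjusted p = 0.0557).

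**Figure D3:**
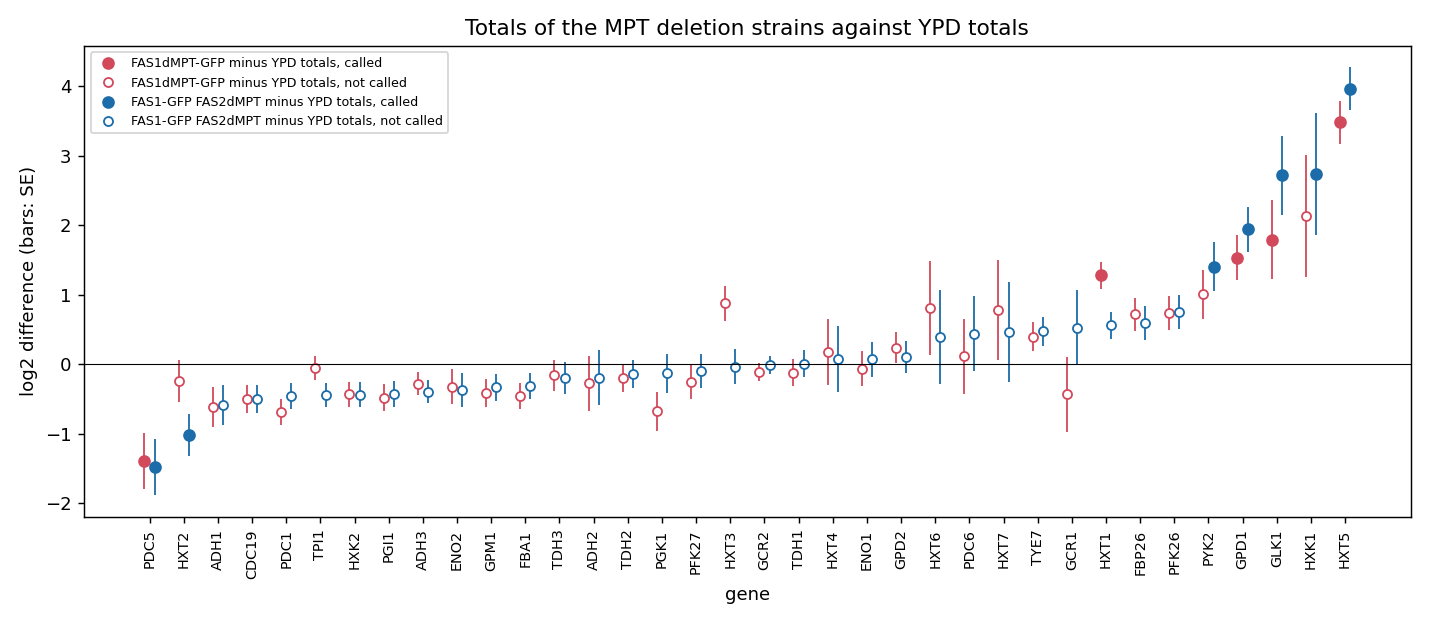
Log2 difference from the YPD totals for the 36 tested genes, with FAS1dMPT-GFP in red and FAS1-GFP FAS2dMPT in blue; bars are SE and filled points are called. HXT5 stands at 3.48 and 3.96, PDC5 at -1.39 and -1.49, and most enzymes of the main pathway lie slightly below 0.

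Of the genes of acetaldehyde and acetate metabolism, 3 of 10 tested were called higher and 1 lower in each deletion strain, where 5.1% of all features were called higher and 1.19% lower in FAS1dMPT-GFP and 6.33% and 1.87% in FAS1-GFP FAS2dMPT. ALD3, a stress-induced aldehyde dehydrogenase, had 138.8 and 184.2 scaled RPM in FAS1dMPT-GFP totals and 287.8 and 515.3 in FAS1-GFP FAS2dMPT totals, against 5.56 to 32.3 in YPD totals, with log2 differences of 3.76 ± 0.39 (adjusted p = 1.04e-06 by limma) and 5.02 ± 0.39 (adjusted p = 3.6e-09). ALD2, its neighbour gene and near copy, was called at 1.70 and 2.74, so reads may be shared between them. ALD5, a mitochondrial aldehyde dehydrogenase, was called lower at -1.16 and -1.30. The other called gene of the list was ADH5, at 1.31, in FAS1dMPT-GFP and ALD4, the main mitochondrial aldehyde dehydrogenase, at 1.78, in FAS1-GFP FAS2dMPT. ADH5 had 36.9 and 38.2 scaled RPM in FAS1dMPT-GFP totals, within the 9.55 to 47.1 of YPD totals. Of further gluconeogenic and glyoxylate genes, 2 of 5 tested were called higher in FAS1dMPT-GFP and 4 of 5 in FAS1-GFP FAS2dMPT, beside the same 5.1% and 6.33% of features. ADR1, the activator of ADH2 and of genes for other carbon sources, was called at 2.33 ± 0.53 and 2.77 ± 0.53, while ADH2 itself was at -0.28 ± 0.40 (adjusted p = 0.686) and -0.20 ± 0.40 (adjusted p = 0.78). GPP2, which releases glycerol from glycerol phosphate downstream of GPD1, was called at 2.00 ± 0.54 and 2.29 ± 0.54. None of the 15 genes of glucose sensing and repression, among them MIG1, SNF1 and MTH1, was called in either strain.

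In SD-trp totals no gene of the pathway was called. Of 5037 features none was called in SD-trp totals against YPD totals (0.0%), and 406 had an unadjusted p below 0.05 by limma. The largest differences among the 36 genes were HXT2 at -0.72 ± 0.25, HXT3 at -0.49 ± 0.21 and PGK1, phosphoglycerate kinase, at 0.47 ± 0.24 (adjusted p = 0.609, 0.609 and 0.611). PFK27 and HXT4 followed at -0.41 each and GPD2 at 0.39 (adjusted p of 0.611 to 0.757). HXT2 had 137.0 and 135.4 scaled RPM in TRP2-GFP totals and 142.6 in TRP3-GFP, within the 113.2 to 418.3 of YPD totals. No gene was above or below every YPD total in all 3 SD-trp libraries, where 0.0794% of features were above and 0.0794% below.

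The SD-trp strains pointed different ways, which their mean conceals; the genes that follow were chosen after their values were seen. PGK1 had 31862 and 29229 scaled RPM in TRP2-GFP totals and 11243 in TRP3-GFP, against 10590 to 21158 in YPD totals. ADH1 had 27352 and 25913 in TRP2-GFP and 10315 in TRP3-GFP, against 9267 to 21686 in YPD totals. HXK1 went the other way, with 48.5 and 39.7 scaled RPM in TRP2-GFP and 635.4 in TRP3-GFP, against 38.9 to 480.7 in YPD totals. In both TRP2-GFP totals 4 genes (PGK1, FBA1, PDC1 and ADH1) lay above every YPD total, where 7.15% of features did. HXT3 lay below every YPD total, where 3.04% of features did. In the TRP3-GFP total 6 genes lay above every YPD total (GLK1, GPD1, HXK1, HXT6, HXT7 and PYK2), where 7.11% of features did, and none below (4.65%).

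The CPA1-GFP total, the only one in SD-arg, was high in the same genes as TRP3-GFP. It had 760.1 scaled RPM of HXK1, 1059 of GLK1, 210.0 of HXT6, 232.0 of HXT7 and 596.1 of GPD1, each above every YPD total. In all, 7 of the 36 genes lay above and 4 (PGK1, HXK2, ADH3 and GCR2) below every YPD total, where 8.0% of features lay above and 5.84% below. HXK2 had 1419 scaled RPM in CPA1-GFP, against 1522 to 2766 in YPD totals. HXT5 had 14.2 scaled RPM in the CPA1-GFP total and 8.91 in the TRP3-GFP total. Both lay within the range of YPD totals, so in these totals HXT5 stayed low where HXK1 and GLK1 were high. In the IPs HXT5 had 22.8 scaled RPM in CPA1-GFP, 14.8 in TRP3-GFP and 11.8 and 22.7 in TRP2-GFP. YPD IPs had 2.30 to 11.8. These SD values rest on 18 to 44 implied reads per IP and were not tested. CPA1-GFP is 1 library and was not tested. TRP2-GFP totals carry the MATalpha pattern; with MATa-pattern totals only, or with TRP3-GFP alone, the PGK1 difference turned to -0.52 and -0.49 and that of HXT4 to 0.68 and 0.60 (adjusted p of 0.58 to 0.958 by limma). With TRP2-GFP alone the PGK1 difference was 0.96 (adjusted p = 0.0502).

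Against the total, the IP of YPD strains held a smaller part of footprints of the abundant glycolytic enzymes. This comparison takes 1 log2 ratio per strain over 10 strains. Only GCR1 was called, higher in the IP, where 4.55% of 5079 features were called higher and 0.197% lower. At the adjusted p alone, 22 of the 36 genes were lower and 3 higher, where 28.7% of features were lower and 27.6% higher. The median was -0.33 over the 36 genes and 0.00 over all features. By role, 8 of 9 lower glycolysis genes, 5 of 6 upper glycolysis genes and 5 of 6 fermentation genes were lower at the adjusted p, against 2 of 7 transporters (HXT2 and HXT3).

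PGK1 was lowest, with a log2 difference of -0.83 ± 0.10 (SE, lower in 10 of 10 strains, adjusted p = 1.44e-05 by limma). It had 6689 to 12142 scaled RPM in YPD IPs, with a median of 8145, against 10590 to 21158 with a median of 15557 in YPD totals. GPM1, phosphoglycerate mutase, followed at -0.82 ± 0.08, ENO1 at -0.76 ± 0.09, ADH1 at -0.71 ± 0.10, ENO2 at -0.70 ± 0.11 and FBA1 at -0.68 ± 0.08 (adjusted p at or below 6.8e-05). All 10 strains were below 0 for PGK1, GPM1, ENO1, ADH1 and FBA1, and 9 of 10 for ENO2, with SUI2-GFP above. Genes of lower level lay on both sides of 0, from PDC5 at -0.65 ± 0.10 and GLK1 at -0.55 ± 0.16 through PYK2 at 0.00 ± 0.10 to GCR1, and the abundant TDH3 and TDH2 were at -0.37 ± 0.08 and -0.26 ± 0.07. Across the 36 genes the Spearman correlation of mean level with the IP ratio was -0.73, and across all 5079 features it was -0.40; genes are not independent replicates, and levels and ratios share the same totals.

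The 3 genes higher in the IP at the adjusted p were GCR1, at 1.22 ± 0.17 (higher in 10 of 10 strains, adjusted p = 2.69e-05 by limma), PFK27, at 0.47 ± 0.14 (8 of 10, adjusted p = 0.00722), and PFK26, at 0.31 ± 0.11 (9 of 10, adjusted p = 0.0221). PFK26 and PFK27 make fructose-2,6-bisphosphate, the activator of phosphofructokinase. GCR1 had a lowest of 28.9, a median of 114.1 and a highest of 180.0 scaled RPM in YPD IPs, against 18.1, 27.3 and 112.8 in YPD totals, so the fractions overlap. The deposited span of GCR1, 3109 nt on chromosome XVI (412254 to 415362), includes an intron. Its level moved with the share of reads on listed features: the 17 IPs above 60 scaled RPM had 37.8% to 86.0% and the 5 totals above it 73.0% to 81.3%, against 66.0% to 94.3% in the 8 IPs and 79.7% to 96.5% in the 20 totals at or below it. The part of that share in the GCR1 ratio was not tested.

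How the libraries are scaled sets the zero of these ratios. With RPM as deposited the median over all features was -0.36, and 7 of the 36 genes were called lower and none higher. With totals set equal over nuclear genes the medians were 0.21 over all features and -0.12 over the 36 genes. The genes' median thus lay 0.33 below that of all features in each case, and the shift with deposited RPM is larger than the 0.31 of PFK26.

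**Figure D4:**
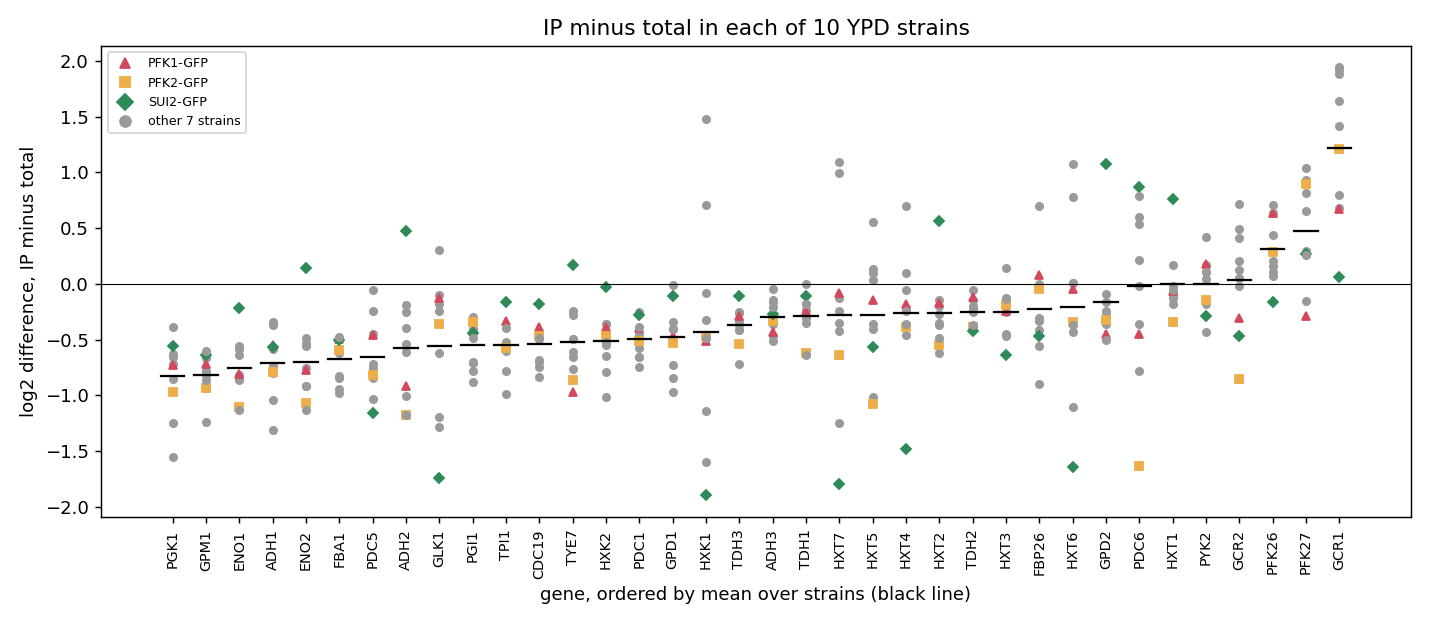
Log2 difference of IP minus total in each of the 10 YPD strains for the 36 tested genes, ordered by the mean over strains (black line). PGK1 is lowest at -0.83 and GCR1 highest at 1.22, and the strains tagged on phosphofructokinase, PFK1-GFP (red) and PFK2-GFP (orange), lie among the others for most enzymes.

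A tag on phosphofructokinase, the enzyme between PGI1 and FBA1 in the pathway, asks whether footprints of neighbouring enzymes come down with it. In PFK1-GFP and PFK2-GFP, compared with the other 8 YPD strains, none of the 36 genes was called, and none of 5079 features (0.0%; 1040 had an unadjusted p below 0.05 by limma). PGI1, phosphoglucose isomerase, which makes the substrate of phosphofructokinase, differed by 0.21 (95% interval -0.21 to 0.62, adjusted p = 0.579), and FBA1, which uses its product, by 0.17 (-0.27 to 0.61, adjusted p = 0.677). PFK27 and PFK26 differed by -0.21 (-0.93 to 0.51) and 0.19 (-0.37 to 0.75). These intervals include differences in either direction. PFK1 and PFK2 differed by 1.49 ± 0.39 and 1.03 ± 0.23 and also missed the adjusted p over all features (0.0837 and 0.0705 by limma), with 2 strains against 8. Each is the tagged protein in 1 of the 2 strains and the partner in the other, so these means mix both roles. PFK1 had 11001 and 23723 scaled RPM in PFK2-GFP IPs (totals 2569 and 2551) but 5923 and 4137 in PFK1-GFP IPs (3599 and 4493). PFK2 had 8851 and 4415 in PFK1-GFP IPs (totals 2330 and 2661), and 6464 and 7728 in PFK2-GFP IPs (5386 and 5382).

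Most of the largest differences among the genes were negative: PDC6 at -1.27 ± 0.46 (adjusted p = 0.138 by limma), GCR2 at -0.77 ± 0.28 (adjusted p = 0.135), ADH2 at -0.58 ± 0.32, TYE7, another activator of glycolytic genes, at -0.49 ± 0.24 and HXT5 at -0.42 ± 0.42. GLK1 was at 0.39 ± 0.41 (adjusted p = 0.623). Leaving out 1 library at a time moved PDC6 between -2.01 (without PFK2-GFP IP 2) and -0.54 (without its IP 1), ADH2 between -0.88 (without PFK1-GFP IP 2) and -0.29 (without its IP 1) and TYE7 between -0.69 and -0.29 for the same IPs of PFK1-GFP. HXT5 moved between -0.84 (without PFK1-GFP total 2) and 0.00 (without its total 1), and GLK1 between 0.04 (without PFK2-GFP total 1) and 0.74 (without its total 2), none of them called. PDC6 rests on few reads, with a value of 0 in PFK2-GFP IP 1 and 6.66 scaled RPM in IP 2, against 4.12 and 13.4 in the PFK2-GFP totals. In PFK2-GFP IP 1 GCR2 had 10 implied reads, TYE7 9 and HXT5 1.

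Within PFK1-GFP no gene of the pathway and no feature was called between IP and total (0.0%; 865 features had an unadjusted p below 0.05 by limma). The SE and p here use 1 spread per feature, shared over the 10 strains with 2 replicates, and so do those of PFK2-GFP below. These strains include FAS1-GFP and FAS1-GFP FAS2dMPT, whose replicate totals differ in mating-type pattern, so the spread also holds those differences. TYE7 was lowest at -0.97 ± 0.37 (adjusted p = 0.217), with 22.6 and 39.9 scaled RPM in the IPs, against 63.9 and 55.7 in the totals. It was called without PFK1-GFP IP 2, at -1.36 (adjusted p = 0.0338). ADH2 followed at -0.91 ± 0.48, with 586.0 and 1346 scaled RPM in the IPs, against 1345 and 2084 in the totals. ENO1, ENO2, PGK1 and GPM1 lay between -0.81 and -0.72 and did not pass (adjusted p of 0.257 to 0.337). These values rest on single IPs: without PFK1-GFP IP 2 they ran from -1.40 for ENO1 to -1.03 for PGK1 (adjusted p of 0.0508 to 0.0584 by limma), and without IP 1 from -0.43 for PGK1 to -0.20 for ENO2. ADH2 was at -1.51 without IP 2 and at -0.31 without IP 1. PFK2, the partner subunit, was at 1.33 ± 0.25 (adjusted p = 0.0957).

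Within PFK2-GFP 7.12% of 5137 features were called higher and 3.02% lower in the IP, and none of the 36 genes was. PFK1 was called at 2.66 ± 0.29 (adjusted p = 6.18e-06 by limma). PGI1 was at -0.34 ± 0.32 and FBA1 at -0.59 ± 0.30, and the median over the 36 genes was -0.52, against -0.01 over all features. At the adjusted p alone 2 genes were lower and none higher, where 4.5% of features were lower and 9.62% higher. PGK1 was at -0.97 ± 0.31 (0.0409), with 8145 and 7423 scaled RPM in the IPs, against 15086 and 15303 in the totals. GCR2 was at -0.86 ± 0.21 (0.0105), with 23.0 and 24.5 scaled RPM in the IPs, against 43.4 and 44.2 in the totals. Low genes rest on few reads here, because PFK2-GFP IP 1 was the shallowest library, with 0.544 M implied reads. In it GCR2 had 10 implied reads, GCR1 15 and HXT5 1. ENO1, ENO2, HXT5 and ADH2 lay between -1.18 and -1.07 and did not pass (adjusted p of 0.0808 to 0.126). PDC6 was at -1.64 ± 0.78 (adjusted p = 0.139), but at -3.10 and called without PFK2-GFP IP 2 (adjusted p = 0.0258 by limma) and at -0.17 without IP 1. GCR1 was at 1.21 ± 0.76 (adjusted p = 0.263), at 0.81 without PFK2-GFP IP 2 and at 1.62 without IP 1.

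Of the neighbouring pathways, 4 genes were called in the IP over the 10 YPD strains, where 4.55% of features were called higher and 0.197% lower. They were 1 of 5 tested in glycerol metabolism, 1 of 10 in acetaldehyde and acetate metabolism, 1 of 15 in glucose sensing and 1 of 6 in gluconeogenesis, all higher: GUT1, glycerol kinase, at 1.52 ± 0.22, ADH4, an alcohol dehydrogenase, at 1.33 ± 0.21, RGT2, a sensor of high glucose, at 1.27 ± 0.19, and ICL1, isocitrate lyase, at 1.19 ± 0.22 (adjusted p at or below 0.000312 by limma). The fractions overlap for all 4. In YPD IPs GUT1 had 11.3 to 96.4 scaled RPM, ADH4 9.12 to 60.2 and RGT2 4.32 to 58.2. In YPD totals they had 5.22 to 54.5, 6.01 to 35.1 and 3.32 to 30.0. ICL1 was low in both, at 1.91 to 17.9 in IPs and 0.765 to 11.1 in totals. In PFK2-GFP the gluconeogenic and glyoxylate genes PYC1 and PYC2, which encode pyruvate carboxylase, and ADR1 were called higher, 3 of 6 tested, where 7.12% of features were. GRR1, part of a ubiquitin ligase of glucose signalling, was called higher and MIG2, a repressor of glucose-repressed genes, lower, of 15 tested, where 3.02% of features were lower. In PFK1-GFP and in the comparison of both tags with the other 8 strains, 0.0% of features were called. The absence of called genes from these lists there thus says nothing particular about them.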

How the data were processed

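Gene values came from the authors' deposited tables, which have no header; the values were taken as RPM from the low values of each deposited column, which are multiples of 1 step. The submitters' processing notes name cutadapt 1.8.3, an adapter trimmer; for aligner, counting rule, strand use and build, the step is not given in the sources used here. Only 13.3% to 75.6% of a library's values were whole reads within 0.01 read, so reads were not recovered and no count test, planned for the case of raw counts, was run. Of 6605 features 5919 matched RefSeq R64 and 5887 had its coordinates; 28 mitochondrial features were left out. Libraries were brought to one scale by trimmed means of log ratios without weights (trims 0.3 and 0.05) and set to log2(RPM + 1), which understates changes of low genes. Features with a mean of at least 5 were fitted by limma 3.58.1 (trend) in R 4.3.3, with Benjamini-Hochberg adjustment over all features, and called where adjusted p was under 0.05 and the log2 difference reached 1 in size. The totals comparisons fitted 25 totals with a mean per class, and the single PFK strains were fitted within 40 libraries of 10 strains. The method was tested on simulated data. Alternatives covered scaling, pseudocount, filter, library weights, strain means, a replicate block, library layout and leaving out libraries. Per contrast, called genes are named up to 12, and the next largest up to 6. Replicates differed by more than sampling noise. Replicate numbers were not treated as pairs. Members and lists were chosen with earlier results of these data known. Position files and 16 samples without a gene table were not used here.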

Additional observations from a re-analysis of the deposited data

Results flagged for a closer look

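Among the 10 YPD strain ratios of IP over total, 6 of 36 genes had a strain far from the others. Features outside the list were not checked, so whether this count is unusual is not known. Of these, 5 were in SUI2-GFP, which has 1 library per fraction: on the log2 scale HXT4 was at -1.48, ENO2 at 0.14, GPD2 at 1.07, HXT1 at 0.76 and HXT2 at 0.56. In that strain HXK1 had 106.6 scaled RPM in the IP, against 399.2 in the total, and GPD2 had 290.6 in the IP, against 137.5 in the total. The SUI2-GFP total had 1.77 M implied reads and the IP 14.0 M, and their coordinates are listed in different orders. The IP correlated best with SUI3-GFP total 1 (r = 0.9782 across features). The part of these differences in the ratios was not tested. The sixth was GPM1 in FAS2-GFP, at -1.24.

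Among the 4 totals with fatty acids, 3 of 38 genes had a library far from the others, again without a count over all features. PGK1 had 20572 and PDC1 35073 scaled RPM in total 1 of FAS1-GFP FAS2dMPT, the MATalpha-pattern library, against 9777 to 10017 and 22757 to 24104 in the other 3. GPD2 had 214.1 scaled RPM in total 2 of FAS1-GFP FAS2dMPT, against 253.5 to 258.6.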

How the results depend on the processing

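The number of genes called stayed within 1.5 times of the reported one in 196 repeats and not in 20. In FAS1dMPT-GFP totals 5 genes were called; equal totals, RPM as deposited, library weights and the adjusted p alone each gave 9, and 1 mean per strain gave 2. In FAS1-GFP FAS2dMPT totals 7 were called, and 1 mean per strain, MATa-pattern totals only (chosen after seeing the data) and leaving out total 2 each gave 3. Equal totals moved the median of all features by 0.30 and 0.29 and RPM as deposited by 0.42 and 0.24 in these 2 comparisons. Tables of the low-to-high coordinate layout alone, also chosen after seeing the data, called 5 and 8. For IP against total over YPD strains, where 1 was called, RPM as deposited gave 7 and the adjusted p alone 25. For PFK2-GFP, where 0 were called, equal totals gave 1, the adjusted p alone 2 and the replicate block 6, at unchanged differences: PDC6, ADH2, ENO1, HXT5 and ENO2 lower and GCR1 higher (adjusted p of 0.00486 to 0.0488 by limma).

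Leaving out 1 library at a time gave 0 to 0 called genes in SD-trp totals, 2 to 6 in FAS1dMPT-GFP totals, 3 to 7 in FAS1-GFP FAS2dMPT totals, 1 to 1 in the IP over YPD strains, 0 to 0 for both PFK tags against other strains, and 0 to 1 in PFK1-GFP and in PFK2-GFP, where the remaining library was assumed to vary like the other groups. In SD-trp totals the PGK1 difference reversed to -0.52 and -0.49, and that of HXT4 to 0.68 and 0.60, with MATa-pattern totals only and with TRP3-GFP alone. Of the values of single named genes, 1262 kept their side of the threshold, 41 lost the call and 20 gained it.

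With the replicate block, 0 genes were called in SD-trp totals, 5 in FAS1dMPT-GFP totals, 7 in FAS1-GFP FAS2dMPT totals, 1 in the IP over YPD strains, 0 for both PFK tags and 0 in PFK1-GFP; over all features it called 137 for both PFK tags, where 0 were called without it, and library weights called 159. The labels do not say that a number marks a shared lysate. Same-numbered totals and IPs deviated together with correlations of 0.00202 in ARC1-GFP to 0.834 in GUS1-GFP, so the numbers were not read as pairs.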
